A study of Homo sapiens with 14 samples.

Results

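RH30 alveolar rhabdomyosarcoma cells gained 1411 strongly accessible regions with QC6352, a small molecule that inhibits KDM4 histone demethylases, and these regions are followed here through the hairpin and myoblast libraries of the same study. The 50000 strongest ATAC-seq peaks of each of the 2 QC6352 libraries were merged into 61717 regions, and 35748 of these held a strong peak of both libraries. The 1411 QC6352-opened regions, 2.29% of the 61717, were those of the 35748 that no peak touched in either DMSO library, however weak. The other 34337, called other strong regions below, had a DMSO peak and serve as the comparison. Shares are over all 1411 unless a smaller set is named.

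ATAC-seq reads out open chromatin from where the Tn5 transposase inserts adapters, and a peak is a stretch of DNA with more insertions than its surroundings. RH30 carries PAX3-FOXO1, the fused transcription factor that drives these tumours, and received 0.1% DMSO or 200 nM QC6352. In another arm RH30 was transduced, for 72 h, with shCtrl, a control hairpin, or with a hairpin against KDM4B, either shKDM4B-813 or shKDM4B-814. LHCN cells, which are immortalised human myoblasts, overexpressed PAX3-FOXO1 or held an empty vector for 72 h. The labels give 72 h in a sentence that covers the hairpins and may cover the compound too. There were 2 libraries per group in 7 groups, each group from 1 cell line, and nothing says that the 2 came from separate cultures, so p-values here cover the library-to-library spread alone, which could be technical.

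KDM4 enzymes remove methyl groups from lysines of histone H3, among them the trimethyl mark of heterochromatin that keeps DNA compact. QC6352 blocks the catalytic pocket that members of the family share, whereas a hairpin lowers the amount of a single member. PAX3-FOXO1 binds enhancers of the muscle lineage and holds them open in these tumours, and myoblasts are the normal cells closest to them in type. The DNA opened by the compound can therefore be set beside the DNA opened by depletion of KDM4B and beside the DNA that is open in myoblasts. Neither KDM4B level nor histone methylation was measured by this assay.

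The group names of the hairpin arm need a warning before any result. In 6 of the 14 lists the name written inside the peak list differed from the sample label, and these were all 6 hairpin lists. The 2 libraries labelled shCtrl carried peak names of sh813, the 2 labelled shKDM4B-813 carried peak names of sh814, and the 2 labelled shKDM4B-814 carried peak names of shCtrl. The other 8 lists matched their labels. The labels were kept as the groups, every hairpin library is called by its label, and the differences in open share and the counts for both hairpins are also given with the groups that the peak names state. The splits by rank, width, LHCN class and chromosome are by label only, and read under the peak names by exchanging the names as above. Accessibility does not show which is right, since no library reports KDM4B message. The direction of the hairpin results depends on it.

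Lists also differed in length, from 93488 to 176899 peaks, and read depth is unknown. Every list outside the rule was therefore cut to its 93488 strongest peaks, called equal length. A region was open in a library when at least 1 base of it was covered by such a peak.

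The regions were chosen by their QC6352 and DMSO peaks, so the QC6352 values here are a description with no test. Within its list of equal length, the typical QC6352-opened region stood at percentile 62.0 in the first QC6352 library and at percentile 66.7 in the second, where 100 would be the strongest peak. The median fold over local background, the authors' own value, was 7.64 and 7.83. By the weaker of its 2 ranks the median region stood at 39284, with a range from 4424 to 49989, against 25383 among the other strong regions. The QC6352-opened regions were therefore mostly in the lower part of the strong class. Their median width was 381 bases, against 744 bases for the other strong regions. The nearest DMSO peak lay a median of 6722 bases away, and 138 regions (9.78%) had one within 500 bases.

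The limit of 50000 peaks was set by −log10 q of 9.76 and fold of 6.55 in the first QC6352 library, and by −log10 q of 12.4 and fold of 6.17 in the second. Just inside it were hg19 chr9:133286418-133286864 at rank 49989, chr9:132081545-132083467 at rank 49964 and chr18:46147654-46148829 at rank 49911. Just outside were chr9:134277457-134277799 at rank 50003, chr19:47744102-47744735 at rank 50068 and chr20:7160933-7161178 at rank 50115. Among the 3 just inside, the first was open in none of the 10 hairpin and LHCN libraries and the third was open in 9.

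Coordinates are hg19 and count from 1; gene annotation and sequence of that build were not used here, so regions are given by position. The strongest QC6352-opened region was chr3:86465484-86465891, with fold 16.4 and 17.6 in the 2 QC6352 libraries. It was open in the libraries labelled shKDM4B-813 at percentiles 66.8 and 68.7 and in those labelled shKDM4B-814 at 56.3 and 32.8. It had no peak of any strength in the libraries labelled shCtrl or in LHCN. Region chr18:30502805-30503455 had the same pattern, at percentiles 64.0 and 62.7 (labelled shKDM4B-813) and 21.5 and 35.4 (labelled shKDM4B-814). Region chr1:106764949-106765419 stood higher in the libraries labelled shKDM4B-813, at 82.2 and 84.9, with 53.9 and 41.1 in those labelled shKDM4B-814. A weak peak touched it in the first library labelled shCtrl, beyond the equal length. These 3 regions were thus open in RH30 with QC6352 and in all 4 libraries labelled with a KDM4B hairpin, and had no peak in myoblasts.

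Other leading regions were open in myoblasts as well. Region chr7:87203776-87204269 was open in all 4 LHCN libraries at percentiles between 51.4 and 55.0. In the hairpin arm it was open at 69.4 and 78.2 in the libraries labelled shKDM4B-813 and at 37.0 in the first labelled shKDM4B-814 only. Region chr1:101836708-101837293 was likewise open in all 4 LHCN libraries, at 30.0 and 23.4 with vector and 41.7 and 43.4 with PAX3-FOXO1. The widest pattern among the leading 10 belonged to chr11:105590131-105590524, open in 9 of the 10 libraries. That region reached percentiles 97.8 and 98.1 in the libraries labelled shKDM4B-813, with fold 43.4 and 34.0, above its fold of 13.1 and 15.2 with QC6352. Its percentiles in LHCN were 23.02 and 23.96 with vector and 89.8 and 80.4 with PAX3-FOXO1. How often the 2 LHCN groups lie apart by percentile over all strong regions was not counted. It was missing only from the second library labelled shCtrl.

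At equal length the remaining leading regions were open in at most 4 of the 10 hairpin and LHCN libraries. Region chr7:94443083-94443539 stood at percentile 91.2 and 93.3 with QC6352, and at equal length it was open in 1 of the 10 libraries, the second labelled shKDM4B-813, at percentile 30.9. Region chr2:2530872-2531273 was open in the first library labelled shKDM4B-813 at 65.4 and in the first labelled shKDM4B-814 at 19.8, and in no LHCN library. Region chr11:56700166-56700699 was open in 3 of the 4 libraries labelled with a KDM4B hairpin, at 84.5, 75.1 and 52.2, and in the second PAX3-FOXO1 library at 17.1. Weaker peaks, beyond the equal length, touched it in the other LHCN libraries.

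The hairpin arm, which the rule did not use, separated the QC6352-opened regions by label. In the libraries labelled shCtrl, 11.0% and 9.21% of the 1411 regions were open (mean 10.1% ± 1.25, SD, n = 2). The share was 64.8% and 59.5% in the libraries labelled shKDM4B-813 (62.2% ± 3.76, SD, n = 2). In those labelled shKDM4B-814 it was 41.7% and 26.7% (34.2% ± 10.6, SD, n = 2). The 3 groups did not overlap, and the 2 libraries labelled shKDM4B-814 lay furthest apart. Absence of overlap, in the same order, was also seen over all 61717 strong QC6352 regions. There the shares were 68.3% and 68.4% (labelled shCtrl), 79.5% and 76.8% (labelled shKDM4B-814) and 81.5% and 81.0% (labelled shKDM4B-813).

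**Figure D1:**
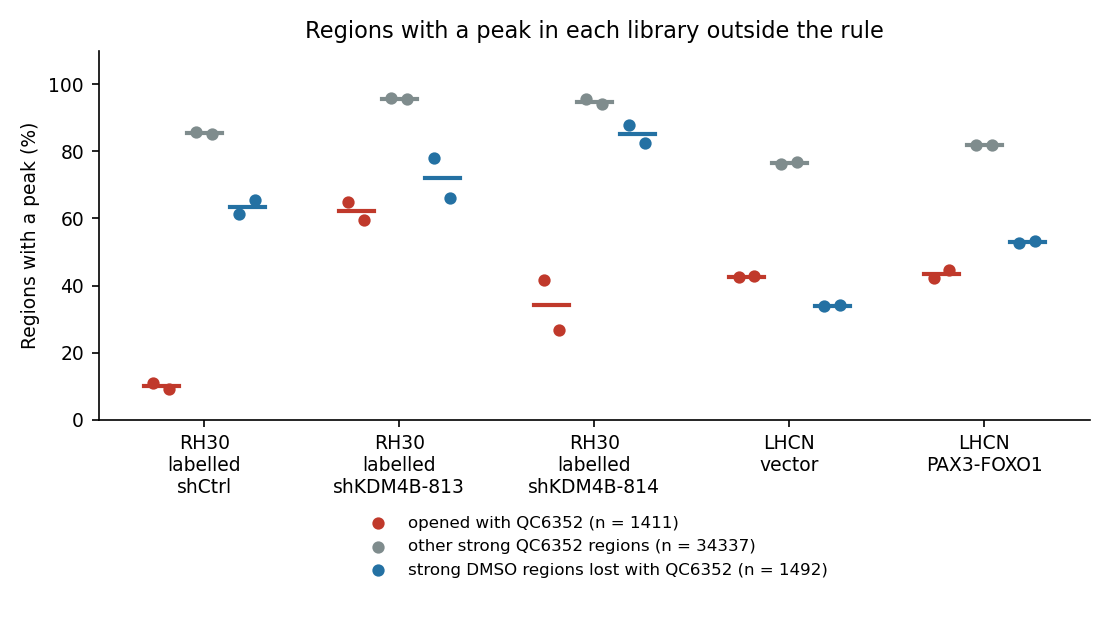
Share of regions with a peak (%, y axis) for the 1411 QC6352-opened regions, the 34337 other strong regions and the 1492 strong DMSO regions lost with QC6352, in each of the 10 libraries outside the rule (x axis), with every list cut to 93488 peaks; each point is a library and lines mark group means. The QC6352-opened regions range from 9.21% in a library labelled shCtrl to 64.8% in one labelled shKDM4B-813, and the 4 LHCN libraries lie between 42.4% and 44.7%.

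The share was 52.1 percentage points higher in the libraries labelled shKDM4B-813 than in those labelled shCtrl (exact two-sided permutation test, p = 0.3333, the smallest that 2 against 2 can give). It was 24.1 points higher in those labelled shKDM4B-814, again at the smallest p (exact permutation, p = 0.3333). With the 4 KDM4B-labelled libraries together the difference was 38.1 points (exact permutation, p = 0.133, where 0.0667 is the smallest possible), so it did not pass 0.05, which no hairpin comparison here could. All 4 lay above both libraries labelled shCtrl. The 2 hairpin comparisons share those 2 libraries and are not independent. Between the 2 hairpins as labelled, the share was 28.0 points higher with shKDM4B-813 (exact permutation, p = 0.3333).

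With groups taken from the peak names the picture turned. The sh813 libraries then lay 24.1 points below the shCtrl libraries and the sh814 libraries 28.0 points above them (exact permutation, p = 0.3333 for each). The 2 hairpins together differed from shCtrl by 1.95 points (exact permutation, p = 0.867). The sh814 libraries then lay 52.1 points above the sh813 libraries (exact permutation, p = 0.3333). Under those names 1 hairpin had fewer and the other more of the QC6352-opened regions open than the control hairpin.

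The other strong regions differed less between the same libraries. Their mean open share was 85.6% in the libraries labelled shCtrl, 95.7% in those labelled shKDM4B-813 and 94.8% in those labelled shKDM4B-814. By peak name their differences from shCtrl were −9.20 points for sh813 and 0.974 points for sh814. Subtracting their share library by library left differences of 41.9 points for shKDM4B-813 and 14.9 points for shKDM4B-814 as labelled (exact permutation, p = 0.3333 for each). By peak name the second value is that of sh813 with its sign reversed. The mirrored set, 1492 strong DMSO regions without any QC6352 peak, also had higher shares in the KDM4B-labelled libraries. By label the differences were 8.58 points for shKDM4B-813 and 21.7 points for shKDM4B-814 (exact permutation, p = 0.3333 for each). By peak name both hairpins lay below shCtrl there, with −21.7 points for sh813 and −13.1 points for sh814 (exact permutation, p = 0.3333 for each). Together they gave −17.4 points (exact permutation, p = 0.0667, the smallest possible). As labelled, the difference for shKDM4B-814 was of similar size at regions opened and at regions lost with QC6352. Nothing particular to the opened regions can be read from it. The rule removed every region with a DMSO peak, so a lower share in RH30 libraries than among the other strong regions follows in part from the choice of regions. The hairpin comparisons are conditional on that choice too, since a library closer to DMSO would have a lower share by it.

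By region, 627 of the 1411 (44.4%) were open in both libraries labelled shKDM4B-813 and in neither labelled shCtrl, beside 11.3% of all 61717 strong QC6352 regions. The reverse held for 21 (1.49%, background 2.44%). For shKDM4B-814 the count was 186 (13.2%, background 6.67%, and 12.1% of the mirrored set), with 14 in the reverse direction (0.992%, background 1.74%). All 4 KDM4B-labelled libraries and neither labelled shCtrl were open at 169 regions (12.0%, background 5.3%), and the reverse held at 7 (0.496%, background 0.954%). Between the hairpins, 213 regions (15.1%, background 2.97%) were open in both libraries labelled shKDM4B-813 and in neither labelled shKDM4B-814, and 15 (1.06%, background 1.36%) the other way. Under the peak names, 4 regions were open in all 4 hairpin libraries and in neither shCtrl library (background 0.217%), and 6 the other way (background 0.386%).

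Most regions open with the label shKDM4B-814 were also open with shKDM4B-813. Both libraries labelled shKDM4B-813 were open at 724 regions and both labelled shKDM4B-814 at 274. The 228 shared regions were 31.5% of the first list and 83.2% of the second. The same overlap was not counted over the other strong regions. There 77.1% were open in all 6 hairpin libraries, so a large overlap is not particular to the QC6352-opened regions. A sole opening in both libraries labelled shKDM4B-813 was seen at 202 regions (14.3%, against 2.33% of all strong QC6352 regions). For shKDM4B-814 it was 6 (0.425%, against 0.386%) and for shCtrl 7 (0.496%, against 0.954%), shares near or under the background. The most frequent single pattern was no peak in any of the 6 hairpin libraries, at 291 regions (20.6%, against 6.72% of all strong QC6352 regions). In the lists as deposited 181 (12.8%, against 4.42%) had none, so part of the 291 held a peak too weak for the equal length. The next was opening in both libraries labelled shKDM4B-813 and the first labelled shKDM4B-814, at 214, a pattern whose background share was not counted.

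**Figure D2:**
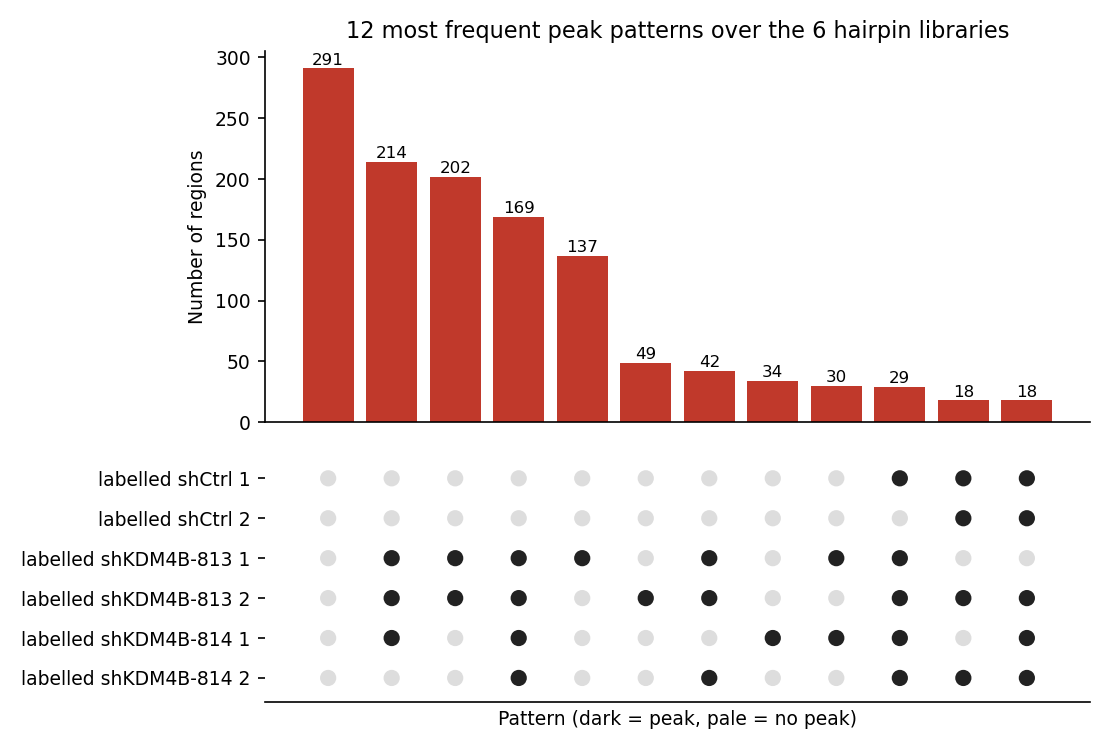
Number of the 1411 QC6352-opened regions (y axis of the bars) in each of the 12 most frequent patterns over the 6 hairpin libraries (x axis), at equal list length; the dots under each bar show which libraries, named by their labels, have a peak (dark) or not (pale). No peak in any of the 6 (291 regions) leads, followed by patterns that include both libraries labelled shKDM4B-813 (214, 202 and 169 regions).

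Replicate agreement limits these counts. Of the regions open in either library of a group, the share open in both was 45.4% for the label shCtrl, 70.2% for shKDM4B-813 and 39.7% for shKDM4B-814. Among the other strong regions it was 89.5%, 95.2% and 94.1%. Without the second library labelled shKDM4B-814, the gained count for that hairpin became 473 in place of 186, and the count for both hairpins became 383 in place of 169. The background without that library was not counted.

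Regions open in all 4 KDM4B-labelled libraries included chr12:33345113-33345544, at percentiles 86.7 and 82.5 (labelled shKDM4B-813) and 23.1 and 43.5 (labelled shKDM4B-814). Only 13 of the 1411 regions (0.921%) were open in all 6 hairpin libraries, against 77.1% of the other strong regions. Among them chr5:32768042-32768722 stood at 25.9 and 57.5 in the libraries labelled shCtrl, at 77.8 and 86.3 in those labelled shKDM4B-813 and at 42.4 and 64.0 in those labelled shKDM4B-814. It was also strong in LHCN, at 92.3 and 92.4 with vector. Region chr1:67131164-67131442 was open in all 6 hairpin libraries, with 66.7 and 48.1 in those labelled shCtrl, and in no LHCN library at equal length.

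Where a QC6352-opened region did have a peak, the peak was of middling to low rank. Its median percentile was 46.1 and 51.5 in the libraries labelled shCtrl, 50.2 and 49.3 in those labelled shKDM4B-813, and 35.5 and 36.6 in those labelled shKDM4B-814. The hairpin groups thus ordered differently by strength than by share, since the peaks in the libraries labelled shKDM4B-814 were the weakest.

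Regions that were stronger with QC6352 were more often open in the KDM4B-labelled libraries. Among the 82 regions whose weaker rank lay between 10001 and 20000, the mean open share was 89.6% in the libraries labelled shKDM4B-813 and 50% in those labelled shKDM4B-814. It was 77.4% and 42.3% in the next 10000 ranks (226 regions) and 63.8% and 37.0% in the following (437 regions), and 52.1% and 27.2% among the last 658. In the libraries labelled shCtrl the shares over the same bins were 7.93%, 4.65%, 9.73% and 12.5%. The shares in LHCN ran from 51.2% to 40.3% with vector and from 53.7% to 39.7% with PAX3-FOXO1. The other strong regions showed the same order at higher levels, from 99.3% to 88.1% with the label shKDM4B-813, from 99.0% to 85.9% with shKDM4B-814 and from 93.8% to 70.7% with shCtrl. A further 8 regions ranked in the first 10000, too few for a share. These are descriptions across regions of the same libraries.

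**Figure D3:**
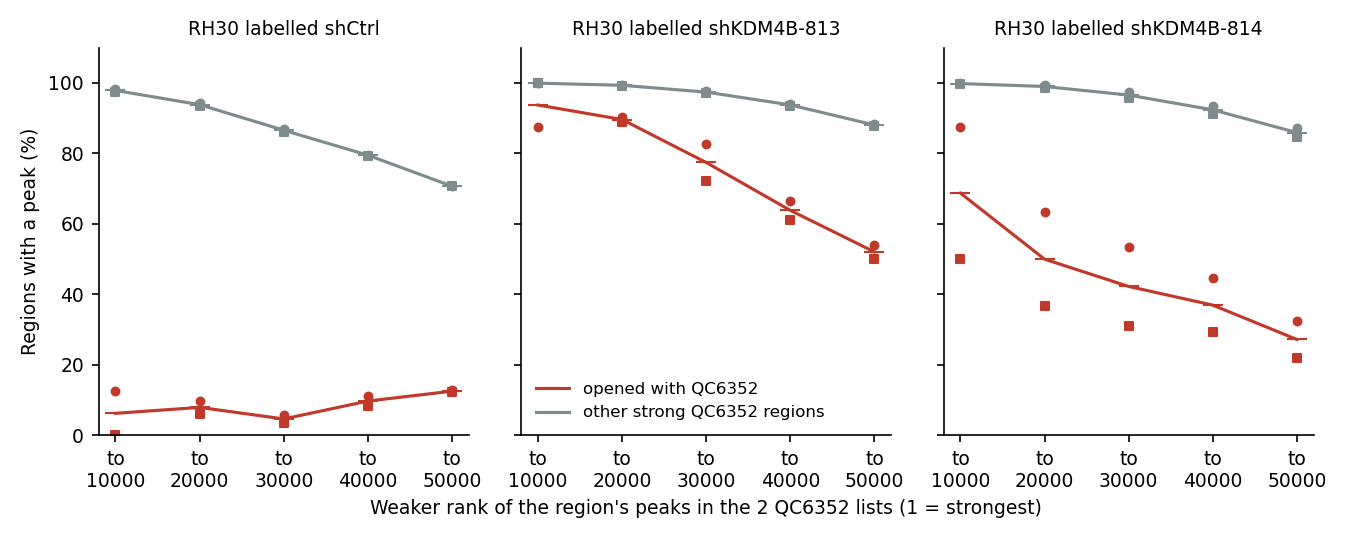
Share of QC6352-opened regions with a peak (%, y axis) by the weaker of their 2 QC6352 ranks in bins of 10000 (x axis), for the 3 hairpin labels, with circles for the first and squares for the second library, lines through their means and grey for the other strong regions. The share in the libraries labelled shKDM4B-813 goes from a mean of 89.6% in the second bin to 52.1% in the last, while in those labelled shCtrl it stays at or below 12.5% by mean; the first bin holds 8 regions.

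In LHCN myoblasts, 42.5% and 42.7% of the QC6352-opened regions were open with vector (42.6% ± 0.20, SD, n = 2) and 42.4% and 44.7% with PAX3-FOXO1 (43.6% ± 1.654, SD, n = 2). At equal length the 2 groups overlapped and differed by 0.957 points (exact two-sided permutation test, p = 1). The other strong regions then differed by 5.35 points in the same libraries, with 76.5% and 81.9% open. In the lists as deposited the groups did not overlap, at 60.4% and 59.4% with vector and 63.0% and 65.8% with PAX3-FOXO1. That difference was 4.50 points (exact permutation, p = 0.3333). Mean shares of the other strong regions as deposited were 86.2% and 90.3%. At equal length, regions open in both PAX3-FOXO1 and neither vector library numbered 67 (4.75%, background 5.49%). The reverse held at 46 (3.26%, background 1.9%). In the lists as deposited these counts were 96 (6.80%, background 4.26%) and 31 (2.20%, background 1.12%). Whether the first share lay under or over the background thus depended on the cut. At equal length, 246 (16.5%) of the 1492 mirrored lost regions were open in both PAX3-FOXO1 and neither vector library, with 10 (0.670%) the reverse. Their open share was 19.1 points higher with PAX3-FOXO1 (exact permutation, p = 0.3333). That the fusion's difference is smaller at regions opened than at regions lost with QC6352 was not tested across libraries.

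Openness in myoblasts was closer to all or none than partial. All 4 LHCN libraries were open at 457 of the 1411 regions (32.4%) and none at 656 (46.5%). Among the other strong regions these shares were 72.7% and 14.5%, and among the lost regions 29.8% and 41.0%. The balance rests on the equal length: in the lists as deposited 714 (50.6%) of the QC6352-opened regions had a peak in all 4 and 386 (27.4%) in none, against 83.1% and 6.998% of the other strong regions. The strongest in myoblasts of the named regions was chr4:173903277-173903747, at percentiles 97.6 and 96.6 with vector and 97.8 and 97.8 with PAX3-FOXO1. In the libraries labelled shKDM4B-813 it stood at 40.2 and 55.5, and no peak touched it in those labelled shKDM4B-814 or shCtrl. Region chr1:187660544-187660970 was as strong, between 94.2 and 98.1 in LHCN. It was open in all 4 KDM4B-labelled libraries, at 83.6, 86.4, 61.5 and 33.9.

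The 67 regions called for PAX3-FOXO1 over vector were differences of strength in every example named. Region chr10:15669687-15670054 stood at percentiles 40.9 and 28.5 with PAX3-FOXO1, and its vector peaks were present in the deposited lists at ranks 156775 and 117526. Region chr14:56269698-56270124 stood at 24.03 and 7.64 with PAX3-FOXO1, with vector peaks at ranks 104274 and 93639, the latter just past the equal length of 93488. Of the regions called the other way, chr22:43317964-43318331 stood at 44.0 and 37.9 with vector, with PAX3-FOXO1 peaks at ranks 117568 and 97267. Region chr18:63681264-63681577 stood at 44.0 and 45.9 with vector, with PAX3-FOXO1 peaks at ranks 143790 and 100026.

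Regions open in myoblasts were also more often open in the KDM4B-labelled libraries. Of the 457 regions open in all 4 LHCN libraries, 78.3% and 70.0% were open in the libraries labelled shKDM4B-813 and 53.0% and 31.3% in those labelled shKDM4B-814. Of the 656 with a peak in none of the 4, these shares were 54.3% and 54.1%, and 35.8% and 25.2%. In the libraries labelled shCtrl the order was the other way, with 9.63% and 6.35% of the first set and 13.0% and 13.1% of the second. The KDM4B-labelled order was shared by the other strong regions, with 97.6% and 97.0% (label shKDM4B-813) where all 4 LHCN libraries were open and 88.5% and 89.9% where none was. Their shares with the label shCtrl ran the same way, at 89.2% and 88.8% against 75.6% and 74.4%. The 67 PAX3-FOXO1 regions were open at 85.1% and 67.2% with the label shKDM4B-813, and the 46 vector regions at 50% and 45.7%. The same classes of the other strong regions had the same order, at 98.4% and 97.3% against 89.6% and 86.0%.

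Across the 10 hairpin and LHCN libraries, 8 regions (0.567%) were open in all, against 59.9% of the other strong regions. At equal length 171 (12.1%) were open in none, against 3.71% of all strong QC6352 regions and 1.27% of the mirrored lost regions. In the lists as deposited 58 (4.11%) had no peak in any of the 10, against 1.5% of all strong QC6352 regions and 0.603% of the mirrored lost regions. The strongest of the 58 were chr1:233844183-233844523, with fold 9.83 and 13.3 in the QC6352 libraries, and chr3:87094590-87094963, with fold 10.9 and 9.26.

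The widest of the QC6352-opened regions were open in other libraries than the narrow ones. The 77 QC6352-opened regions over 1000 bases were open at 79.2% in each library labelled shCtrl, at 22.1% and 70.1% in those labelled shKDM4B-813 and at 46.8% and 66.2% in those labelled shKDM4B-814. In LHCN they were open at 24.7% and 24.7% with vector and 19.5% and 24.7% with PAX3-FOXO1. The 1334 narrower regions had the opposite order, with 7.05% and 5.17% with the label shCtrl, 67.3% and 58.9% with shKDM4B-813 and 41.4% and 24.4% with shKDM4B-814. The 2 libraries labelled shKDM4B-813 therefore differed far more over the wide regions than over the narrow ones. The QC6352 libraries differed there too, with a median peak width of 595 bases in the first and 1619 bases in the second. Wide regions among the other strong regions were also more often open with the label shCtrl, at 97.4% and 97.5% against 79.6% and 78.7% of narrower ones. With the label shKDM4B-813 these shares were 95.9% and 97.7% against 96.0% and 94.4%. A wide region meets the rule of 1 base more easily, and the part of this was not tested.

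**Figure D4:**
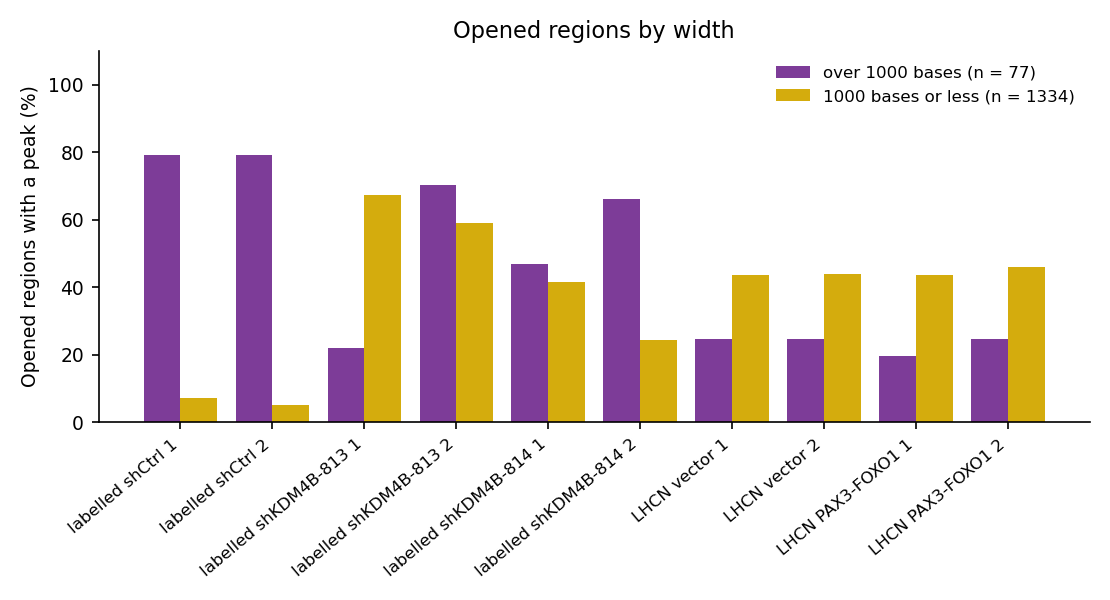
Share of QC6352-opened regions with a peak (%, y axis) in each hairpin and LHCN library (x axis), for the 77 regions over 1000 bases and the 1334 of 1000 bases or less. The wide regions are open at 79.2% in both libraries labelled shCtrl, where the narrow ones are open at 7.05% and 5.17%.

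Of the 77 wide regions, 39 (50.6%) lay on chromosome 9 (18) or 17 (21). Those chromosomes held 1872 and 2141 of the 35748 strong regions of both QC6352 lists. Of the 89 regions open in both libraries labelled shCtrl, 58 (65.2%) were over 1000 bases and 45 (50.6%) lay on chromosome 9 (23) or 17 (22). Of the other 1322, 7.94% lay on those 2 chromosomes. The 89 were open in all LHCN libraries at 15 (16.9%), against 442 (33.4%) of the rest. Both width and these shares describe the regions after they were seen. Of these, only width was followed into the hairpin results. Over the narrower regions alone the differences from the label shCtrl were 57.0 points for shKDM4B-813 and 26.8 points for shKDM4B-814. Over all 1411 they were 52.1 and 24.1 points. The part of the chromosomes was not measured.

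QC6352-opened regions lay on every autosome and on chromosome X, and on none of the 38 strong regions of chromosome Y. They made up 3.95% of the strong regions of both QC6352 lists. The share by chromosome was highest on chromosome 21 at 6.80%, then 5.56% on chromosome 3 and 5.54% on chromosome 5. It was lowest on chromosome 19 at 1.29%, chromosome 16 at 1.48% and chromosome 22 at 1.74%. In the libraries labelled shCtrl the mean open share was 46.4% on chromosome 19 (14 regions), 45.5% on chromosome 22 (11 regions), 40% on chromosome 17 (70 regions) and 30.6% on chromosome 9 (80 regions). On chromosomes 3, 4 and 7 it was 2.34%, 2.34% and 3.37%. No test was made of these shares, since regions are not replicates and share their libraries.

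**Figure D5:**
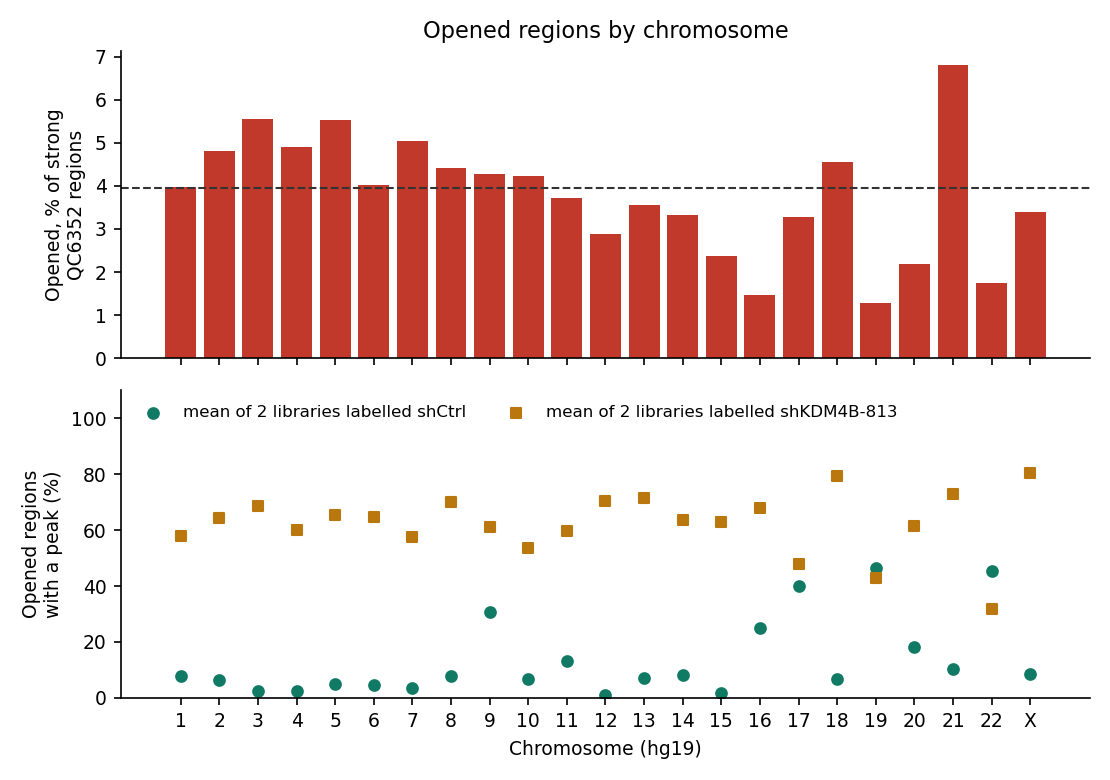
QC6352-opened regions as a share of the strong regions of both QC6352 lists (%) by chromosome (upper bars; the dashed line is 3.95% over all), and below it the mean share of them with a peak (%) in the libraries labelled shCtrl and shKDM4B-813. Chromosome 21 has the highest share of QC6352-opened regions (6.80%) and chromosome 19 the lowest among autosomes (1.29%), and the openness with the label shCtrl is highest on chromosomes 19, 22, 17 and 9.

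The regions were scattered. They fell into 933 windows of 1000000 bases, and 612 regions were alone in theirs. The median gap to the next one was 887619 bases, and 42 gaps (3.03%) were under 10000 bases. The fullest windows held 6 regions each. The window that starts at chr21:28000001-29000000 held 6 among 27 strong regions, 4 of them open in both libraries labelled shKDM4B-813 and none in both labelled shCtrl. In chr9:75000001-76000000, 4 of 5 were open in both libraries labelled shKDM4B-813 and 4 in all LHCN libraries. The reverse was seen in chr17:73000001-74000000, where all 5 were open in both libraries labelled shCtrl and 0 in both labelled shKDM4B-813. The windows named are examples from among the fullest. Openness of the other strong regions in these windows was not counted, so nothing particular to the QC6352-opened regions can be read here.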

How the data were processed

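Each of the 14 libraries has its own deposited narrowPeak list, on hg19. MACS2 2.1.1, SAMtools 1.3.1, Picard 1.65 and BWA 0.7.12-r1039 are named per the submitters' processing notes; settings, depth and any Tn5 read shift: not given in the sources used here. Of the columns, the authors' score per peak was not used, and the deposited summit offset served 1 alternative. The authors' fold, a ratio over background, broke ties, and the deposited −log10 q ranked peaks; the deposited −log10 p was not used. Distinct low fold values were whole multiples of 1 step per list, fitted to them (100% of these values, tolerance 0.05), which is not depth. Higher fold values were not checked.

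QC6352-opened regions were built as stated in the report, with overlap of 1 base. Lists were cut to 93488 peaks, the shortest list, so absence means absence among the strongest. A region was called for a group when open in both of its libraries and in neither of the other group's. Shares were compared by exact two-sided permutation over libraries. The code was tested on simulated lists. Python 3.11.15, numpy 2.4.6, pandas 2.3.3 and matplotlib 3.10.9 were used. Regions and lists were chosen with earlier results of these data known. Named regions were the 10 highest by the lower of their 2 QC6352 percentiles (some printed), the first 5 per class of openness in that order (some printed), 3 on each side of the limit and the fullest windows of 1000000 bases. The grouping by peak name, the width split and the subtraction of other strong regions were chosen after seeing the data. Gene lists, motifs and markers planned for an hg19 annotation were not run.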

Additional observations from a re-analysis of the deposited data

Results flagged for a closer look

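With groups taken from the names inside the peak lists, the 2 hairpins differed from the control hairpin in opposite directions over the QC6352-opened regions. The share of open regions was −24.1 points for sh813 minus shCtrl, with both sh813 libraries below both shCtrl libraries. It was 28.0 points for sh814 minus shCtrl, with both sh814 libraries above both. The difference between the 2 effects was not tested, and both use the same 2 control libraries. With the sample labels as groups both hairpins lay above shCtrl, by 52.1 and 24.1 points.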

How the results depend on the processing

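By label, the differences in open share for shKDM4B-813, shKDM4B-814 and both hairpins against shCtrl kept their direction under all alternatives run. The grouping by peak name gave −24.1, 28.0 and 1.95 points, so only the first was reversed. The PAX3-FOXO1 difference in LHCN, 0.957 points, moved both ways. It became −1.03 with the 50000 strongest peaks of each list and −0.410 with regions from the 75000 strongest QC6352 peaks. After subtraction of the other strong regions it was −4.39. It became 4.50 with the lists as deposited, 6.33 with regions from the 30000 strongest QC6352 peaks and 2.48 with −log10 q of 10 or more. Leaving out 1 library at a time gave −0.213 to 2.13 for it, 49.4 to 54.7 for shKDM4B-813, 16.6 to 31.6 for shKDM4B-814 and 32.5 to 45.3 for both. The labels do not say that a replicate number marks a shared batch, and 2 numbers cannot show it; first libraries lay above their group mean in all 3 hairpin groups and below it in both LHCN groups. With the replicate block the 4 differences stayed 52.1, 24.1, 38.1 and 0.957 points (exact permutation within numbers, p = 0.5, 0.5, 0.222 and 1). Counts of regions gained moved with the limits. Outside the lists as deposited and the grouping by peak name, background shares were not counted for these alternatives, so the counts alone show no enrichment. With the 50000 strongest peaks of each list they were 352 (shKDM4B-813), 46 (shKDM4B-814) and 39 (both); with −log10 q of 10 or more, 47 and 46 for the last 2. Regions from the 30000 strongest QC6352 peaks numbered 316, of which 209, 67 and 65 were gained, with 22 gained and 4 lost for PAX3-FOXO1. Those from the 75000 strongest numbered 4150, with 1255, 328 and 280 gained, and 161 gained and 145 lost for PAX3-FOXO1. By peak name the main counts became 14, 213 and 4. Leaving out 1 library gave 651 to 811, 206 to 473 and 174 to 383, and 79 to 94 gained and 60 to 87 lost for PAX3-FOXO1. With the lists as deposited, 96 were gained and 31 lost for PAX3-FOXO1. The number of QC6352-opened regions was 316 from the 30000 and 4150 from the 75000 strongest peaks, and 2122 to 4759 without 1 QC6352 or DMSO library. The cause of each change was not tested, beyond fewer lists or peaks entering. Depth is unknown, so absence of a peak is not closure.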
